A study of Mus musculus with 39 samples.

Results

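The 71 genes described here encode the nuclear subunits of the mitochondrial respiratory chain and of ATP synthase. They were taken by gene name alone from the 55487 rows of the count table, but the set was chosen with earlier results of these data known. The patterns took the Nduf subunits of complex I, the Sdh subunits of complex II, the Uqcr subunits and Cyc1 of complex III, 5 subunits of cytochrome oxidase (Cox5a, Cox5b, Cox6c, Cox7b and Cox7c) and the Atp5 subunits of ATP synthase. The set holds 37 genes of complex I, 4 of complex II, 9 of complex III, 5 of cytochrome oxidase and 16 of ATP synthase. Atp5o, the stalk subunit that joins the head of ATP synthase to its arm, stood in the table only under names that join an ID and a symbol, so the patterns did not take it. Its values are given beside those of the other subunits.

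The respiratory chain passes electrons from NADH (complex I) and succinate (complex II) through ubiquinone, complex III and cytochrome c to cytochrome oxidase, and pumps protons across the inner mitochondrial membrane on the way. ATP synthase lets the protons back through its membrane rotor and makes ATP in its catalytic head. Complexes I, III and IV and ATP synthase mix subunits encoded in the nucleus with subunits encoded in mitochondrial DNA, while all subunits of complex II are nuclear. In the mouse, the mitochondria of the cleaving embryo come from the egg, and the embryonic genome becomes broadly active at the 2-cell stage.

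The embryos were wild type, and the labels give neither a strain nor an age beyond the stage. The 39 libraries came from 19 embryos: 5 separated 4-cell, 5 separated 2-cell, 4 intact 4-cell and 5 intact 2-cell embryos. A separated embryo was taken apart and each blastomere made 1 library, whereas an intact embryo was 1 library, so separation cannot be told apart from input per library or from the number of libraries summed. Separated 4-cell embryos 6 and 7 formed batch 2 and the other 17 embryos batch 1, so batch was known from separated 4-cell embryos alone. The labels do not tie the embryos to separate litters, so a p-value speaks only of the variation among the embryos sampled, part of which may be technical.

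Counts per embryo came to 13041675 to 103179667 in separated 4-cell, 14229851 to 56216690 in separated 2-cell, 2738246 to 4194073 in intact 4-cell and 7157817 to 9889926 in intact 2-cell embryos. In each separated 2-cell embryo the deeper sister gave 54.6% to 78.4% of the counts, and blastomere 2 of separated 4-cell embryo 7 held 2019180 counts. The libraries had the transcripts of early embryos: 16 oocyte and early embryo markers summed to 6205 to 51658 CPM (counts per 1000000) over the embryos. Markers of other cells were low, at 0 to 38.5 CPM for 12 cumulus and granulosa genes, 1.34 to 50.6 for 7 blood genes, 0 to 25.6 for 7 sperm genes and 8.89 to 135 for 6 oviduct genes. Their part in the results was not tested.

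Each of the 71 genes had enough counts to be tested across embryos. An intact 4-cell library had 0 to 1 of the 71 genes without a count and an intact 2-cell library 4 to 8, although the 4-cell libraries were shallower. Single blastomeres lacked 1 to 9 of the genes in batch 1 of the 4-cell stage, none in batch 2, and 6 to 17 at the 2-cell stage. Atp5g2 had no count in 18 of the 39 libraries, the largest number among the 71 genes. CPM give a share of the counts of an embryo, not an amount of RNA, and fewer cells with a transcript and less RNA per cell cannot be told apart in a whole embryo.

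Per length, the genes spanned levels from 4.24 to 1590 CPM per kilobase of transcript, averaged over all 19 embryos, for the 69 genes with a transcript length in the GENCODE M21 annotation. The highest were Uqcr10 and Cox5a, a small subunit of complex III and a subunit of cytochrome oxidase, at 1590 and 1290 CPM per kilobase. Atp5k, Ndufa2 and Cox6c followed at 808, 788 and 750.0 CPM per kilobase. The lowest were Sdha at 4.24, Ndufs1 at 4.87, Sdhc at 5.26, Ndufv1 at 5.50 and Ndufa10 at 5.56 CPM per kilobase. Sdha is the catalytic flavoprotein of complex II, and Ndufs1 and Ndufv1 carry iron-sulfur clusters in the electron input arm of complex I.

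By complex, the median level per length was lowest for complex II. Its 4 genes had medians of 19.6 CPM per kilobase in batch 1 of the separated 4-cell embryos and 3.50 in separated 2-cell embryos, and of 11.2 in intact 4-cell and 3.67 in intact 2-cell embryos. Cytochrome oxidase was highest, with medians of 876 in intact 4-cell and 288 in intact 2-cell embryos. Complex III stood at 214 in intact 4-cell and 24.3 in intact 2-cell embryos, and complex I at 89.3 and 47.0 in the same order of stages. ATP synthase stood at 334 in batch 1 of the separated 4-cell and 181 in the separated 2-cell embryos. The order of the complexes is a description, since genes of 1 complex also lay far apart, as in ATP synthase, where the mean over all embryos ran from 7.22 to 808 CPM per kilobase.

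**Figure D1:**
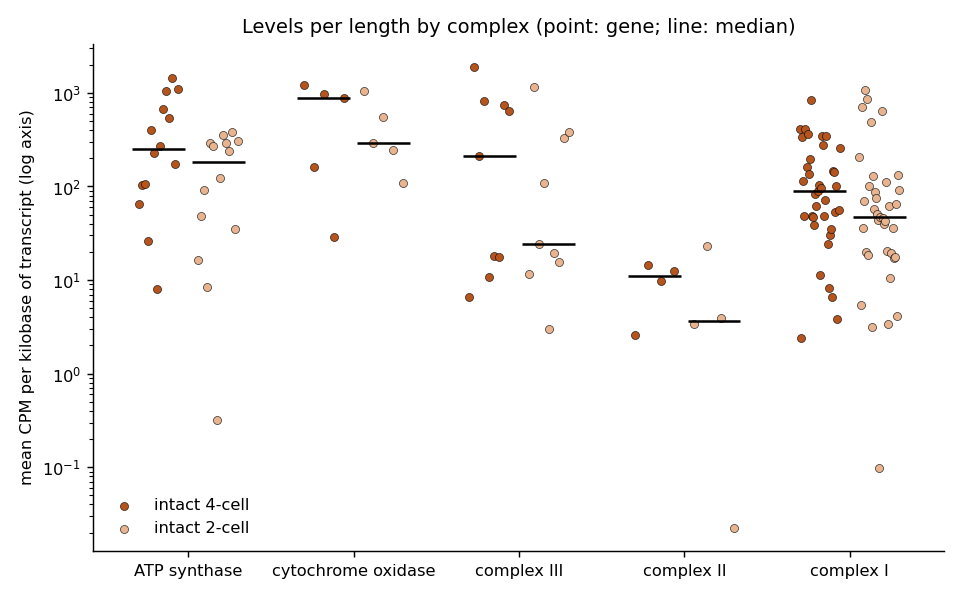
Mean CPM per kilobase of transcript (log axis) of the 69 genes with a length, by complex, in intact 4-cell (dark, n = 4 embryos) and intact 2-cell embryos (light, n = 5); each point is a gene and each line a median. Complex II lies lowest, with medians of 11.2 and 3.67, and the medians of each complex were higher at the 4-cell stage.

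The 71 genes took 1.33 ± 0.22% of the counts in intact 4-cell and 0.906 ± 0.251% in intact 2-cell embryos (mean ± SD, n = 4 and 5). ATP synthase genes took 0.526 ± 0.099% in intact 4-cell and 0.290 ± 0.122% in intact 2-cell embryos, and complex III genes 0.215 ± 0.038% and 0.101 ± 0.037%. The genes of complex I took 0.380 ± 0.063% in intact 4-cell and 0.360 ± 0.061% in intact 2-cell embryos. In separated embryos they took 0.661%, 0.536% and 0.530% in batch 1 of the 4-cell stage, above the 0.340% to 0.395% of the 2-cell stage. In separated embryos the 71 genes took 2.08%, 1.70% and 1.62% in batch 1 of the 4-cell stage and 0.781% and 0.885% in batch 2. The separated 2-cell embryos took 0.992%, 0.907%, 0.882%, 1.08% and 0.880%, below all 3 embryos of batch 1 and overlapping those of batch 2. The intact stages overlapped too, since intact 2-cell embryo 5 took 1.31% and the lowest intact 4-cell embryo 1.15%. No test was run on these shares.

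Whether the genes differed between the stages was asked in intact embryos, in separated embryos of batch 1 and as the average of both. In intact embryos 15 of the 71 genes rose and 4 fell at the 4-cell stage, where 5.41% of all 14119 genes tested rose and 4.99% fell (edgeR quasi-likelihood test, adjusted p under 0.05). Their median log2 fold change was 0.82, against −0.00 over all genes. In separated embryos 17 rose and 1 fell, beside 6.4% and 4.7% of all genes, with a median of 1.16 against −0.15. In the average of both, 32 rose and 5 fell, beside 13.7% and 14.3% of all genes, with a median of 1.10 against −0.07. Scaling with DESeq2 size factors instead moved the median of all genes in intact embryos to −0.13 and that of the 71 genes to 0.67. Of the 16 oocyte and early embryo markers 10 fell in the average and 0 rose, with a median of −2.40, and their part in the stage differences was not tested.

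The 2 stage comparisons rest on different embryos, though 1 fit gave both. Of the genes that rose, 11 did so in both, which is 73.3% of those in intact and 64.7% of those in separated embryos: Atp5a1, Atp5h, Atp5j, Atp5k, Atp5l, Atp5mpl, Cox7c, Ndufb7, Ndufc1, Ndufs5 and Uqcrb. Ndufa9 fell in both. The 2 embryos of batch 2 lay above every separated 2-cell embryo for Atp5a1, Atp5g2, Atp5l, Ndufb7, Ndufs1, Ndufs5 and Uqcrb. They did not for the other genes that rose in separated embryos, Atp5h, Atp5j, Atp5k, Atp5mpl, Cox6c, Cox7c, Ndufc1, Ndufv3, Uqcr10 and Uqcrh. Across the 71 genes the log2 fold changes of the 2 comparisons had Pearson's r = 0.73 and Spearman's rho = 0.80, and 60 had the same sign. This is a description over genes, which share libraries and are not independent.

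**Figure D2:**
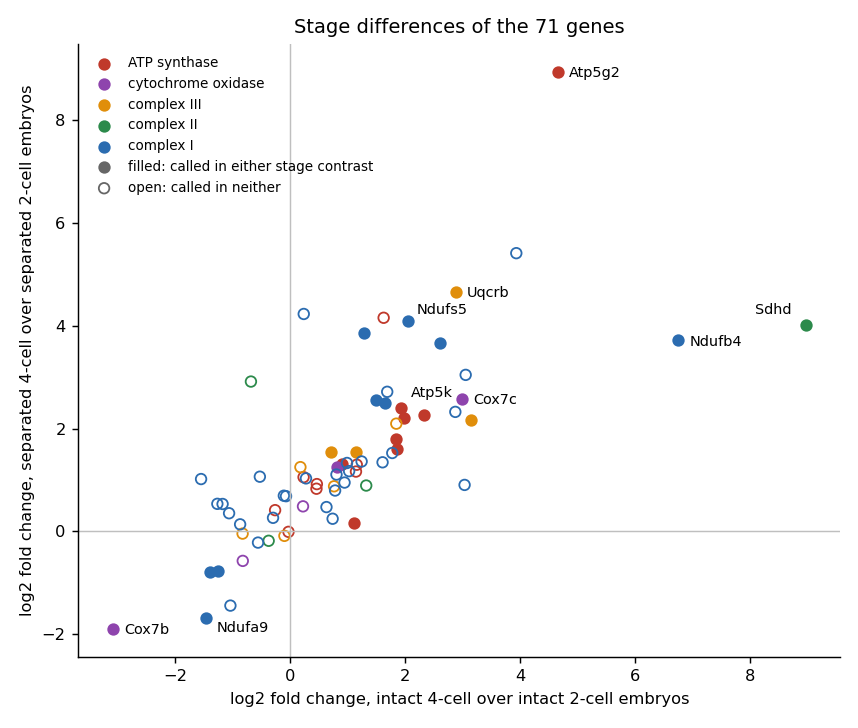
Log2 fold change of each of the 71 genes at the 4-cell over the 2-cell stage, in intact embryos (x axis) and in separated embryos of batch 1 (y axis), coloured by complex and filled where edgeR's adjusted p was under 0.05 in either. Of the 71 genes 49 lie above 0 in intact and 60 in separated embryos, Cox7b and Ndufa9 lie below 0 on both, and 60 of the 71 have the same sign.

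The letters of 3 factors known to act at promoters of respiratory genes in mammals were searched in the promoters of 59 of the genes, which RefSeq gives as 250 bases before to 50 after each start (GRCm38.p6): GCGCATGC, read by NRF1; CCGGAAGT, read by GABP; and AAGATGGC, read by YY1. Both strands were searched. NRF1's letters can overlap their own reverse complement, and such an overlap was counted as 1 gene. NRF1's letters were in the promoters of 9 of the 59 genes (15.3%, exact binomial 95% interval 7.22% to 27.0%), against 3.05% of the 27025 genes in the whole table. YY1's were in 10 (16.9%, 8.44% to 29.0%), against 3.19%, and GABP's in 4 (6.78%, 1.88% to 16.5%), against 4.31%. The median GC content was 59.0% in the promoters of the matched genes and 52.7% in all promoters. Of the 26 genes with a promoter that rose in the average of both stage comparisons, 5 had NRF1's letters, 3 GABP's and 4 YY1's. Of the 30 with a promoter that passed in neither direction, 4, 1 and 5 had them in the same order. A match is a description of these letters, not a site of binding.

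Of the 16 ATP synthase genes, 7 rose and 0 fell in intact embryos, 7 rose and 0 fell in separated embryos, and 11 rose and 0 fell in their average, with medians of 1.15, 1.31 and 1.19. Those that rose were 43.8%, 43.8% and 68.8% of the 16, beside 5.41%, 6.4% and 13.7% of all genes. Of all genes 4.99%, 4.7% and 14.3% fell. Atp5k encodes subunit e of the membrane part, where ATP synthases pair. In intact embryos it had 596, 439, 311.5 and 518.5 CPM at the 4-cell stage, against 87.4, 118, 79.2, 129 and 196 CPM at the 2-cell stage. In separated embryos it had 711, 549.5 and 528 CPM in batch 1 of the 4-cell stage, against 72.0, 106, 142, 177 and 66.4 CPM at the 2-cell stage. The stages did not overlap in either kind of embryo, and the log2 fold changes were 1.94 ± 0.34 in intact (SE, edgeR adjusted p = 0.00143) and 2.40 ± 0.36 in separated embryos (edgeR adjusted p = 0.000519). Atp5k kept its call in intact, separated and averaged embryos under each alternative run. The 2 embryos of batch 2, at 40.3 and 58.4 CPM, lay below every 2-cell embryo. Its promoter is shown because it is the gene of ATP synthase with the smallest p and holds NRF1's letters on both strands, 50 and 48 bases before the start (capitals), at chr5:108434350-108434649 on the minus strand.
Atp5k: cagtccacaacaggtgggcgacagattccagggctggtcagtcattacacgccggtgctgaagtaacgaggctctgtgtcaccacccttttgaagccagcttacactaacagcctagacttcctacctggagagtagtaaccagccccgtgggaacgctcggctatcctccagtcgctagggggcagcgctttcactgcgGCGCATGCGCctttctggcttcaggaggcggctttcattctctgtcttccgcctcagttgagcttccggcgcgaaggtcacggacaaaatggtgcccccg

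Atp5l, subunit g of the membrane part, averaged 95.6 ± 30.4 CPM in intact 4-cell and 18.98 ± 7.87 CPM in intact 2-cell embryos (mean ± SD, n = 4 and 5), a log2 fold change of 2.33 ± 0.50 (edgeR adjusted p = 0.00524). Without a filter on low counts the call was lost (edgeR adjusted p = 0.0602). Atp5l was at 99.97 ± 42.9 CPM in batch 1 of the separated 4-cell and 20.7 ± 9.29 CPM in the separated 2-cell embryos. Atp5h, subunit d of the peripheral stalk, had 462, 439, 363 and 445 CPM in intact 4-cell embryos, against 215.5, 211, 317, 189.6 and 212 CPM in intact 2-cell embryos. Its fold change was smaller but its spread narrow, with log2 values of 0.90 ± 0.23 in intact (edgeR adjusted p = 0.0164) and 1.32 ± 0.24 in separated embryos (edgeR adjusted p = 0.00237). The second was lost without a count filter or without the batch term (edgeR adjusted p of up to 0.0599). Atp5mpl, a small proteolipid of the membrane part, rose by 1.86 ± 0.38 in intact embryos (edgeR adjusted p = 0.00357) and by 1.60 ± 0.40 in separated embryos (edgeR adjusted p = 0.0151). Atp5j, coupling factor 6 of the stalk, averaged 773 ± 189.8 CPM in intact 4-cell and 217 ± 158 CPM in intact 2-cell embryos and also rose in both. Its locus overlaps Gabpa on the other strand, and the labels do not say whether strand was counted.

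Of the head subunits, Atp5a1, the alpha subunit of the head, had 202, 188, 148 and 131 CPM in intact 4-cell embryos, against 47.2, 13.2, 66.3, 56.1 and 29.0 CPM in intact 2-cell embryos, and rose by 1.98 ± 0.48 (edgeR adjusted p = 0.0117). Atp5b, the catalytic beta subunit, rose in intact embryos (199 ± 34.6 against 91.9 ± 25.3 CPM, log2 1.11 ± 0.30, edgeR adjusted p = 0.024). In separated embryos it averaged 138 ± 21.3 CPM in batch 1 of the 4-cell stage and 124 ± 37.2 CPM at the 2-cell stage, a difference of 0.16 ± 0.33 that did not pass (edgeR adjusted p = 0.816). The difference between the 2 comparisons did not pass as an interaction (−0.95 ± 0.45, edgeR adjusted p = 0.567). Atp5o, outside the set, also rose in intact embryos, at 199 ± 48.8 CPM in intact 4-cell and 79.4 ± 34.4 CPM in intact 2-cell embryos (log2 1.33 ± 0.37, edgeR adjusted p = 0.0283).

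Atp5g1, Atp5g2 and Atp5g3 encode one and the same mature c subunit of the rotor ring with different import sequences. Per length, Atp5g3 and Atp5g1 had 272 and 229 CPM per kilobase in intact 4-cell embryos and 122 and 274 in intact 2-cell embryos, while Atp5g2 had 8.01 and 0.319. Atp5g1 was at 612.5 ± 104 CPM in intact 4-cell and 734 ± 422 CPM in intact 2-cell embryos, with a log2 difference of −0.26 ± 0.39 that did not pass (edgeR adjusted p = 0.723). Atp5g3 averaged 195 ± 122 CPM in intact 4-cell and 87.4 ± 30.6 CPM in intact 2-cell embryos and passed in the average alone (1.23 ± 0.43, edgeR adjusted p = 0.0378), and did not pass without any one of separated 4-cell embryos 2, 3, 6 and 7, separated 2-cell embryos 2, 3 and 5, intact 4-cell embryos 1 and 5 and intact 2-cell embryos 1 and 3, or without the batch term (edgeR adjusted p of up to 0.103 over all its alternatives). Atp5g2 had 298 counts in batch 1 of the separated 4-cell embryos and 1 count in the separated 2-cell embryos, a ratio of 1190 with a counting interval of 211.8 to 47130. It had no count in 6 of the 20 separated 4-cell blastomeres. Its fitted log2 fold change passed in separated embryos (8.94 ± 2.07, edgeR adjusted p = 0.0106) and did not in intact embryos (4.66 ± 1.73, edgeR adjusted p = 0.086). Its levels in intact embryos were 6.99, 2.98, 5.13 and 3.66 CPM at the 4-cell stage, against 0.822 and 0.114 CPM in 2-cell embryos 2 and 4 and no count in the other three. In batch 2 Atp5g2 averaged 19.7 ± 5.01 CPM, above its level in every other group. Counting intervals here and for Sdhd hold for counting error alone, as PCR copies were not told apart from molecules. Atp5pb, subunit b of the stalk, differed little between the stages and did not pass (−0.03 ± 0.30 in intact and −0.01 ± 0.33 in separated embryos).

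**Figure D3:**
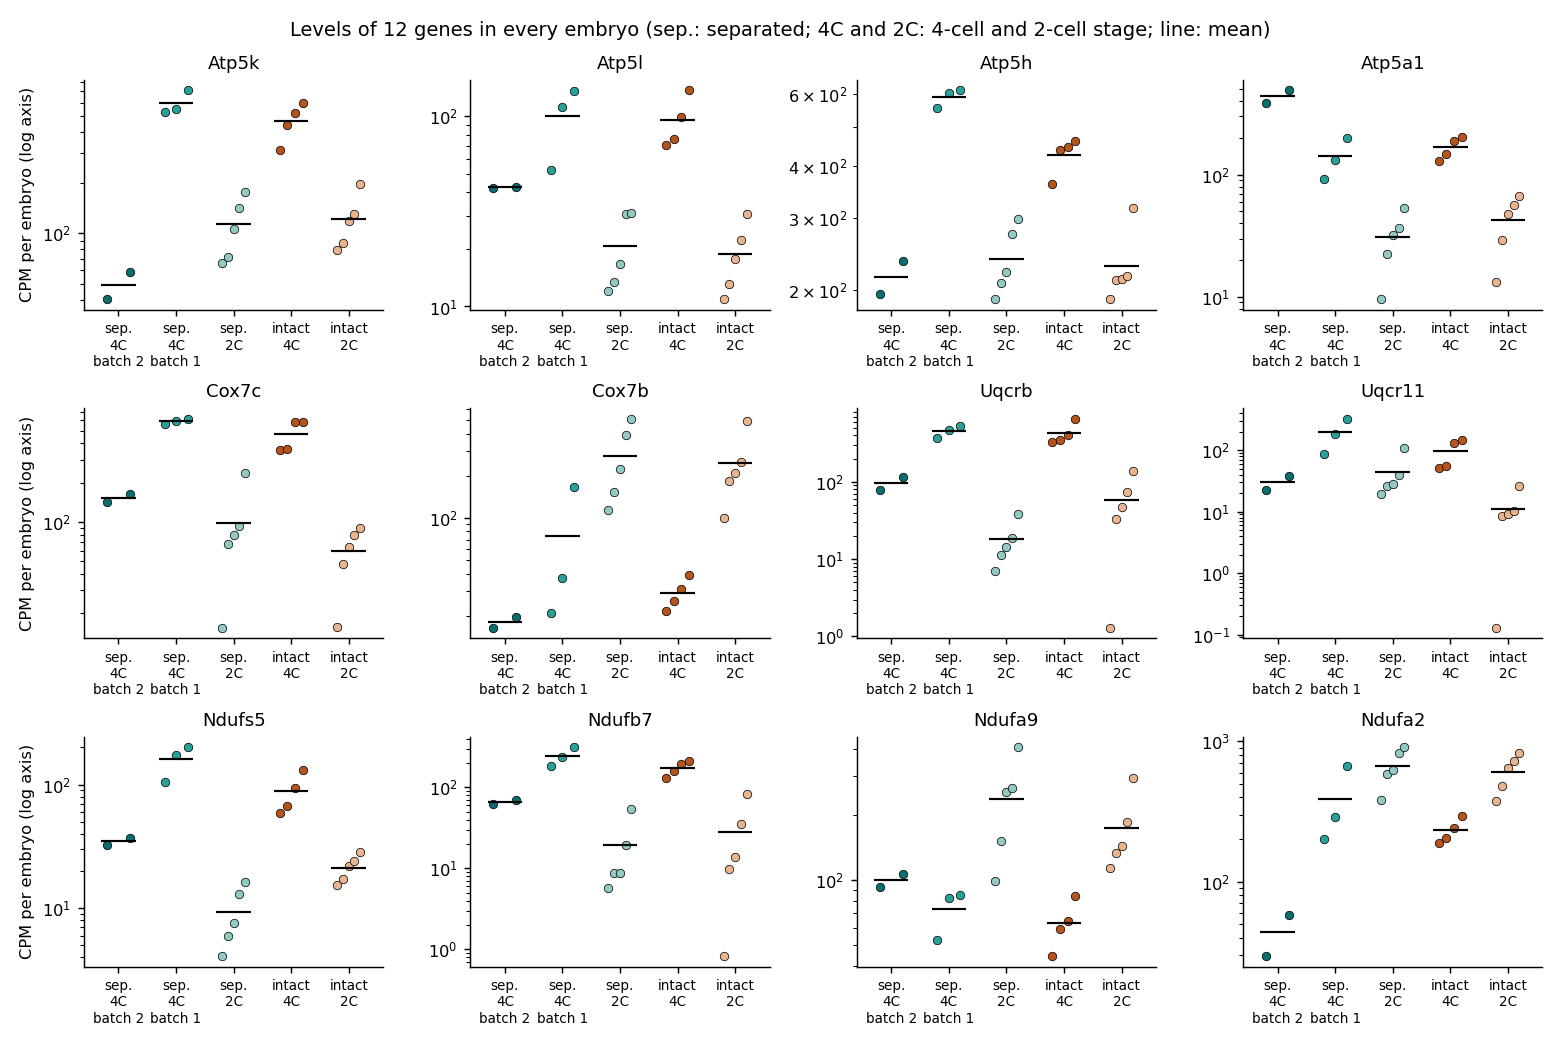
CPM per embryo (log axis) of 12 genes in batch 2 and batch 1 of the separated 4-cell, the separated 2-cell, the intact 4-cell and the intact 2-cell embryos; each point is an embryo and each line a mean. Atp5k had 528 to 711 CPM in batch 1 of the separated 4-cell embryos and 66.4 to 177 CPM in the separated 2-cell embryos, while Cox7b, Ndufa9 and Ndufa2 were lower at the 4-cell stage in intact embryos.

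The 5 cytochrome oxidase genes of the set split in direction. Cox7c, a small subunit on the membrane face, had 583, 588, 363 and 358 CPM in intact 4-cell embryos, against 48.1, 64.3, 15.8, 89.7 and 80.0 CPM in intact 2-cell embryos. It rose by 2.99 ± 0.55 in intact (edgeR adjusted p = 0.00181) and by 2.58 ± 0.57 in separated embryos (edgeR adjusted p = 0.0076), under every alternative run. Cox7b, another small subunit, had 25.4, 30.9, 38.9 and 21.7 CPM in intact 4-cell embryos, against 210.5, 99.3, 183, 248.7 and 492.5 CPM in intact 2-cell embryos, and fell by 3.08 on the log2 scale (SE 0.62, edgeR adjusted p = 0.00374). Per length, Cox7c averaged 876 and Cox7b 29.2 CPM per kilobase in intact 4-cell embryos, against 110.0 for Cox7c and 247 for Cox7b in intact 2-cell embryos, so their order turned round. In separated embryos Cox7b had 166, 37.2 and 20.8 CPM in batch 1 of the 4-cell stage, against 390.0, 114, 153, 224 and 511 CPM at the 2-cell stage, and did not pass (−1.90 ± 0.66, edgeR adjusted p = 0.0656). Cox6c rose in separated embryos (1.26 ± 0.34, edgeR adjusted p = 0.0243) and did not pass in intact ones (0.82 ± 0.32, edgeR adjusted p = 0.0997). The call in separated embryos was lost without separated 4-cell embryo 4, 6 or 7 and without the batch term (edgeR adjusted p of up to 0.368). Cox5a, the highest of the 5 per length, was at 781 ± 33.99 CPM in intact 4-cell and 668 ± 163 CPM in intact 2-cell embryos and Cox5b at 121 ± 18.9 and 215 ± 111 CPM, and neither passed.

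Of 11 cytochrome oxidase subunit genes outside the set that were tested, 3 rose and 2 fell in the average of both comparisons, beside 13.7% and 14.3% of all genes. Cox6b2, which is known as the testis form of subunit VIb, averaged 121 ± 38.5 CPM in intact 4-cell and 1225 ± 541 CPM in intact 2-cell embryos, a log2 fold change in the average of −4.00 ± 0.36 (edgeR adjusted p = 5.72e-07). Cox6b1, the somatic form, averaged 454 ± 144 CPM in intact 4-cell and 230.3 ± 35.1 CPM in intact 2-cell embryos (in the average 1.19 ± 0.21, edgeR adjusted p = 0.000408). Cox8a was at 364 ± 28.4 CPM in intact 4-cell and 870.3 ± 287 CPM in intact 2-cell embryos and fell by 1.08 on the log2 scale in the average (edgeR adjusted p = 0.000863).

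In complex III, 2 of 9 genes rose in intact, 3 in separated and 5 in averaged embryos, and 0 fell, with medians of 0.76, 1.53 and 1.12. Those that rose were 22.2%, 33.3% and 55.6% of the 9, beside 5.41%, 6.4% and 13.7% of all genes. Of all genes 4.99%, 4.7% and 14.3% fell. Uqcrb, the ubiquinone-binding protein of the complex, had 657, 346, 332 and 402.5 CPM in intact 4-cell embryos, against 74.1, 47.0, 1.30, 33.1 and 138 CPM in intact 2-cell embryos. In separated embryos it had 462, 373 and 535 CPM in batch 1 of the 4-cell stage, against 38.3, 7.12, 14.5, 18.9 and 11.3 CPM at the 2-cell stage. The stages did not overlap, and the log2 fold changes were 2.89 ± 0.71 (edgeR adjusted p = 0.014) and 4.66 ± 0.79 (edgeR adjusted p = 0.00116). Without intact 4-cell embryo 1 the first did not pass (edgeR adjusted p = 0.0573). Uqcr11 averaged 95.2 ± 49.2 CPM in intact 4-cell and 10.8 ± 9.35 CPM in intact 2-cell embryos (3.14 ± 0.82, edgeR adjusted p = 0.0194), a call that ended when intact 4-cell embryo 1 or embryo 3 was left out (edgeR adjusted p of up to 0.0729). Uqcr10 and Uqcrh, the hinge protein, rose in separated embryos, by 1.54 ± 0.38 and 1.54 ± 0.41 (edgeR adjusted p = 0.0147 and 0.023), and were at 0.71 and 1.14 in intact embryos (edgeR adjusted p = 0.198 and 0.0642). The differences between the comparisons did not pass as interactions (edgeR adjusted p = 0.735 and 1). Uqcrh was lost without separated 4-cell embryo 2 or 3 or separated 2-cell embryo 1 or 2, without the batch term and with the compared groups alone (edgeR adjusted p of up to 0.216 over all its alternatives), and Uqcr10 without separated 4-cell embryo 2 or the batch term (edgeR adjusted p of up to 0.261). In batch 2 Uqcr10 had 115 and 233 CPM, against 227 to 856 CPM in separated 2-cell embryos. Uqcrh had 73.5 and 89.5 CPM there, against 72.4 to 283 CPM.

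The core proteins Uqcrc1 and Uqcrc2, the Rieske iron-sulfur protein Uqcrfs1 and the cytochrome c1 gene Cyc1 did not pass in any stage comparison. They were low in intact embryos, with 17.9 ± 5.85 CPM for Uqcrc1 and 9.92 ± 5.29 CPM for Cyc1 at the 4-cell stage, against 4.98 ± 7.82 CPM for Uqcrc1 and 17.6 ± 7.45 CPM for Cyc1 at the 2-cell stage. The 5 genes of complex III that rose in the average, Uqcrb, Uqcrh, Uqcr10, Uqcr11 and Uqcrq, encode small subunits without a redox centre. There the log2 fold changes were 1.971 ± 1.195 for Uqcrc1 and 0.715 ± 0.739 for Uqcrfs1 (SE). Those of Uqcrc2 and Cyc1 were −0.093 ± 0.446 and −0.434 ± 1.119. Uqcrq, which rose, was at 0.821 ± 0.258, and a rise of that size could be missed in Uqcrc1, Uqcrfs1 and Cyc1. A difference between the genes that rose and those that did not pass was not tested. The promoter of Uqcr11 is shown because it alone among the 59 genes held the letters of 2 of the factors, GABP's 66 and NRF1's 4 bases before the start (capitals), at chr10:80406772-80407071 on the minus strand.
Uqcr11: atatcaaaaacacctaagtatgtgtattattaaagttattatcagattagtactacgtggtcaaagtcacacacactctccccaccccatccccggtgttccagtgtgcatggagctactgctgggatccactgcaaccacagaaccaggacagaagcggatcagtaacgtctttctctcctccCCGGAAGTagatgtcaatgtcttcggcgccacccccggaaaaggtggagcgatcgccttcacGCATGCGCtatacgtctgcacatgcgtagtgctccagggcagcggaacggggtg

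Of the 4 genes of complex II, 1 rose in intact, 0 in separated and 1 in averaged embryos, and 0 fell. Of all genes 5.41%, 6.4% and 13.7% rose and 4.99%, 4.7% and 14.3% fell in the same order. Sdhd, a membrane anchor, had 239 counts over the 4 intact 4-cell embryos and 1 count over the 5 intact 2-cell embryos, a ratio of 647 with a counting interval of 114.9 to 25640. It had 27.7, 4.09, 29.3 and 0.244 CPM in the 4-cell embryos, against 0.1385 CPM in 2-cell embryo 1 and no count in the other four, so the 4-cell embryos themselves spread widely. Its fitted log2 fold change passed in intact embryos (edgeR adjusted p = 0.0164) and did not in separated embryos (edgeR adjusted p = 0.146), where it had 76.3, 37.0 and 15.8 CPM in batch 1 of the 4-cell stage, against 0.0254, 5.44 and 7.79 CPM in embryos 1, 3 and 4 and no count in the other two of the 2-cell stage. Sdhb, the iron-sulfur subunit, averaged 127 ± 41.1 CPM in batch 1 of the separated 4-cell and 16.9 ± 10.3 CPM in the separated 2-cell embryos, which did not pass (2.92 ± 1.10, edgeR adjusted p = 0.0915). Sdha and Sdhc, the other anchor, averaged 7.57 ± 9.81 and 19.6 ± 7.81 CPM in intact 4-cell embryos and 9.84 ± 17.8 and 7.85 ± 10.9 CPM in intact 2-cell embryos. Neither passed in any stage comparison, and their log2 differences in the average had SEs of 1.52 and 1.16, so a difference of a few fold was not detectable at these levels.

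In complex I, 4 of 37 genes rose and 3 fell in intact embryos, 5 rose and 1 fell in separated embryos, and 13 rose and 4 fell in the average, with medians of 0.78, 1.03 and 0.95. Those that rose were 10.8%, 13.5% and 35.1% of the 37, beside 5.41%, 6.4% and 13.7% of all genes. Those that fell were 8.11%, 2.7% and 10.8%, beside 4.99%, 4.7% and 14.3% of all genes. Ndufs5, an accessory subunit on the intermembrane side, had the smallest p of the set in separated embryos. It had 201, 104 and 174.5 CPM in batch 1 of the separated 4-cell embryos, against 4.09, 13.02, 7.57, 16.2 and 5.996 CPM in the separated 2-cell embryos, a log2 fold change of 4.09 ± 0.53 (edgeR adjusted p = 0.000134). In intact embryos it had 132, 67.3, 58.4 and 94.7 CPM at the 4-cell stage, against 17.2, 28.3, 15.4, 21.9 and 23.9 CPM at the 2-cell stage (2.05 ± 0.48, edgeR adjusted p = 0.00954), a call lost without intact 4-cell embryo 1 and without a count filter (edgeR adjusted p of up to 0.105). The difference between the 2 log2 fold changes, 2.04 ± 0.69, did not pass as an interaction (edgeR adjusted p = 0.411).

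Other accessory subunits rose as well. Ndufb7 averaged 173 ± 35.5 CPM in intact 4-cell and 28.4 ± 32.7 CPM in intact 2-cell embryos (2.61 ± 0.82, edgeR adjusted p = 0.0466) and rose by 3.67 ± 0.87 in separated embryos (edgeR adjusted p = 0.0125). Ndufc1 averaged 436 ± 148 CPM in batch 1 of the separated 4-cell and 77.6 ± 36.7 CPM in the separated 2-cell embryos (2.49 ± 0.49, edgeR adjusted p = 0.00362). In intact embryos Ndufc1 rose by 1.65 ± 0.46 (edgeR adjusted p = 0.028), a call lost without any one of intact 4-cell embryos 1, 3, 4 and 5 or intact 2-cell embryos 1, 2 and 3, without batch 2 and without the batch term (edgeR adjusted p of up to 0.119 over all its alternatives). Ndufb4 was nearly absent from intact 2-cell embryos, at 0.0953 ± 0.133 CPM, and stood at 10.9 ± 8.28 CPM in intact 4-cell embryos (6.75 ± 1.87, edgeR adjusted p = 0.0271). It was lost without intact 4-cell embryo 4 or 5 or intact 2-cell embryo 2 or 4 (edgeR adjusted p of up to 0.0997 over all its alternatives). Ndufv3 rose in separated embryos (2.56 ± 0.79, edgeR adjusted p = 0.0428) and was at 1.49 ± 0.74 in intact embryos (edgeR adjusted p = 0.194), with no difference that passed as an interaction (edgeR adjusted p = 0.953). The call was kept in 12 of 30 alternatives, and did not pass without any one of the 5 separated 4-cell or 4 intact 4-cell embryos or of separated 2-cell embryos 1, 2, 4 and 5 (edgeR adjusted p of up to 0.131).

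Among the core subunits that carry the electrons, Ndufs1 rose in separated embryos, with 15.1 ± 5.27 CPM in batch 1 of the 4-cell stage and 1.04 ± 0.584 CPM at the 2-cell stage (3.86 ± 1.04, edgeR adjusted p = 0.0232), lost without separated 4-cell embryo 3 or a count filter (edgeR adjusted p of up to 0.116). The core subunits Ndufs3, Ndufs7, Ndufs8, Ndufv1 and Ndufv2 did not pass in any stage comparison.

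The 3 genes Ndufa9, Ndufa2 and Ndufa4, all counted with complex I by name in the numbers given here, were lower at the 4-cell stage in intact embryos. Ndufa9, an accessory subunit next to the quinone site, had 84.2, 44.3, 59.2 and 64.4 CPM in intact 4-cell embryos, against 184, 132.5, 296, 143 and 114 CPM in intact 2-cell embryos. In separated embryos it had 85.4, 82.2 and 52.5 CPM in batch 1 of the 4-cell stage, against 99.0, 254, 410.0, 265 and 151 CPM at the 2-cell stage. In batch 1 the stages did not overlap, while batch 2, at 105.9 and 92.97 CPM, overlapped the separated 2-cell embryos. Ndufa9 fell by 1.46 ± 0.41 in intact (edgeR adjusted p = 0.0285) and by 1.69 ± 0.46 in separated embryos (edgeR adjusted p = 0.0251). Each call was lost without some single embryos: intact 4-cell 3, 4 or 5 and intact 2-cell 1 or 3 for the first, and separated 4-cell 2, 3 or 4 and separated 2-cell 3 for the second. Both were also lost without a count filter, and the first with limma voom (adjusted p of up to 0.108 over all alternatives), while the average passed under every alternative run. Ndufa2 averaged 233 ± 47.0 CPM in intact 4-cell and 609.9 ± 183 CPM in intact 2-cell embryos and fell by 1.39 ± 0.36 (edgeR adjusted p = 0.0195), a call lost without the batch term (edgeR adjusted p = 0.127). Ndufa4, now counted as a subunit of cytochrome oxidase despite its name, averaged 167 ± 51.4 CPM in intact 4-cell and 401 ± 209.9 CPM in intact 2-cell embryos. It fell by 1.26 ± 0.36 (edgeR adjusted p = 0.0324), lost without intact 4-cell embryo 3 or 5 or intact 2-cell embryo 2 or 3, without the batch term and with limma voom (adjusted p of up to 0.126 over all its alternatives).

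The promoters of Ndufc1, which rose, and Ndufa9, which fell, are shown because both held YY1's letters at nearly the same place, beginning at bases 23 and 30 when the start is counted as base 1 (capitals). They lie at chr3:51408906-51409205 and chr6:126849095-126849394, each on the minus strand.
Ndufc1: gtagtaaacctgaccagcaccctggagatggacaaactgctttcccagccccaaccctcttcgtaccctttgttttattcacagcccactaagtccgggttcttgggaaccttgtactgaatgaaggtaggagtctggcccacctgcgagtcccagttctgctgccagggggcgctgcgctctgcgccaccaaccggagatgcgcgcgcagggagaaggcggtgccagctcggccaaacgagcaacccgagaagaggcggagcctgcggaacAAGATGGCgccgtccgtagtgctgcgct
Ndufa9: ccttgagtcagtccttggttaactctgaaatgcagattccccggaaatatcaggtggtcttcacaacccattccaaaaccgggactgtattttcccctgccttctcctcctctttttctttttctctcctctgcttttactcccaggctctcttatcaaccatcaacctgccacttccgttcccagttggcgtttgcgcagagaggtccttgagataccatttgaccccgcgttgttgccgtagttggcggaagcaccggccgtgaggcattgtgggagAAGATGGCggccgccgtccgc

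In the average of both comparisons, where 13.7% of all genes rose and 14.3% fell, 4 of 18 complex I assembly genes rose and 2 fell, 6 of 22 cytochrome oxidase assembly genes rose and 1 fell, and 0 of 4 ATP synthase assembly genes passed. Apart from the 6 cytochrome oxidase assembly genes and the 4 of complex I, these counts were at or below the share of all genes. Dmac1, a complex I assembly factor, averaged 29.4 ± 14.2 CPM in intact 4-cell and 0.0813 ± 0.123 CPM in intact 2-cell embryos (in intact embryos edgeR adjusted p = 0.00022). Ndufaf2, another one, averaged 43.3 ± 17.0 CPM in intact 4-cell and 192 ± 82.9 CPM in intact 2-cell embryos (in intact embryos −2.15 ± 0.45, edgeR adjusted p = 0.00472). Of 21 carriers and exchangers 2 rose and 1 fell, among them the phosphate carrier gene Slc25a3, at 199.7 ± 69.5 CPM in intact 4-cell and 46.8 ± 16.3 CPM in intact 2-cell embryos (in intact embryos 2.09 ± 0.41, edgeR adjusted p = 0.00311). Of 10 assembly genes of complexes II and III, 1 rose and 1 fell.

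Of 13 tested genes for regulators of mitochondrial biogenesis, 3 rose and 2 fell in the average, beside 13.7% and 14.3% of all genes. Tfam, which packages and transcribes mitochondrial DNA, averaged 33.8 ± 9.37 CPM in intact 4-cell and 0.0458 ± 0.0636 CPM in intact 2-cell embryos (in intact embryos edgeR adjusted p = 0.0188). Gabpb1, a subunit of GABP, averaged 67.8 ± 39.9 CPM in intact 4-cell and 191 ± 82.7 CPM in intact 2-cell embryos and fell in the average (−1.54 ± 0.36, edgeR adjusted p = 0.00388). Of 12 tested chain genes encoded in mitochondrial DNA, 0 rose and 4 fell in the average, beside 13.7% and 14.3% of all genes, with a median of −0.48. Of the 12, mt-Nd3, mt-Co2, mt-Co3, mt-Atp6 and mt-Atp8 were nearly uncounted, with group means of 0.099 to 3.69 CPM, and none of these 5 passed. The other 7, split off after their values were seen, had group means of 850.0 to 92650 CPM and a median of −0.46, and mt-Nd1, mt-Nd2, mt-Nd4 and mt-Cytb fell. mt-Nd2, a complex I subunit, averaged 10430 ± 2486 CPM in intact 4-cell and 20190 ± 3525 CPM in intact 2-cell embryos (in intact embryos −0.95 ± 0.19, edgeR adjusted p = 0.00287). Mitochondrially encoded genes gave 18.4% to 31.6% of the counts in intact 4-cell and 22.6% to 33.1% in intact 2-cell libraries, and leaving them out of the totals moved the share of the 71 genes to 1.79% in intact 4-cell and 1.25% in intact 2-cell embryos.

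Separation was asked about at each stage. None of the 71 genes passed at the 2-cell or the 4-cell stage (edgeR, beside 0.0142% and 0.0% of all genes). An unadjusted edgeR p under 0.05 was found for 8 and 8 of them, beside 1481 and 844 of all 14119 genes. None passed in the interaction of stage and separation, beside 0.0% of all genes. There 7 had an unadjusted edgeR p under 0.05, beside 1228 of all 14119 genes. The DESeq2 test called 3 at the 2-cell stage (Sdhd higher, Ndufs1 and Ndufs5 lower), 0 at the 4-cell stage and 2 in the interaction (Ndufa11 and Ndufs5), where it called 3.49%, 2.68% and 3.66% of all genes, so these counts were near the background. The median log2 difference of separated over intact embryos was 0.12 at the 2-cell and 0.53 at the 4-cell stage, against 0.16 and 0.05 over all genes. The median at the 2-cell stage was below 0 under 5 of 30 alternatives (at lowest −0.08, with DESeq2 size factors). At the 4-cell stage 63 of the 71 values were above 0, beside 52.0% of all genes. The smallest p at the 4-cell stage was that of Ndufb6, a membrane arm subunit of complex I, with 433 ± 169 CPM in batch 1 of the separated 4-cell and 199 ± 30.3 CPM in intact 4-cell embryos (1.12 ± 0.35, edgeR adjusted p = 0.801). At the 2-cell stage it was that of Ndufs1, with 1.04 ± 0.584 CPM in separated and 9.01 ± 8.22 CPM in intact 2-cell embryos (−3.11 ± 0.95, edgeR adjusted p = 0.244).

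The 2 batches of separated 4-cell embryos differed in many of these genes. In batch 2, 1 of the 71 genes was higher and 15 were lower than in batch 1, beside 0.269% and 1.76% of all genes, and their median log2 fold change was −1.72, against 0.13 over all genes. Atp5b was the gene that was higher, at 669.9 and 817 CPM in batch 2, against 133, 162 and 120.2 CPM in batch 1 (2.43 ± 0.41, edgeR adjusted p = 0.00197). Atp5k stood at 40.3 and 58.4 CPM in batch 2, against 711, 549.5 and 528 CPM in batch 1 (−3.60 ± 0.54, edgeR adjusted p = 0.000647). Atp5md, a small subunit of ATP synthase that also ties pairs of the enzyme, was at 117 ± 37.4 CPM in batch 2 and 992.5 ± 351 CPM in batch 1 (−3.09 ± 0.45, edgeR adjusted p = 0.000422). The others that were lower were Atp5e, Atp5h, Atp5mpl, Cox5a, Cox6c, Ndufa2, Ndufa4, Ndufa7, Ndufa11, Ndufb6, Uqcr10, Uqcrh and Uqcrq. Leaving out separated 4-cell embryo 6, 7 or 2 left 2, 5 or 9 genes lower, and with 6 or 7 left out the lone embryo of batch 2 was assumed to vary like the rest. Atp5b, Atp5k and Atp5md passed under every alternative run.

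The batch difference varied with transcript length. Over 69 genes its Spearman correlation with transcript length was 0.71, against 0.13 over the 11122 tested genes with a length, and this is a description across genes. The 23 shortest genes, of up to 603 bases, had a median log2 fold change of −2.48, and the 23 longest, of more than 1077 bases, one of 0.44. All genes of the same lengths had medians of −2.03 (239 genes) and 0.52 (9865 genes). The stage difference in intact embryos had a correlation of −0.31 with length over the 69 genes and of 0.03 over all genes. There the shortest and middle classes had medians of 1.14 and 1.16 and the longest one of −0.11, against 0.18, −0.06 and 0.07 over all genes of those lengths. In separated embryos the 3 classes had medians of 1.54, 1.32 and 0.89, against 0.45, 0.13 and −0.14 over all genes. There 17 of the 23 longest genes were above 0, beside 4636 of 9865 of all genes in that class. In batch 2 blastomeres, mitochondrially encoded genes gave 4.21% to 7.99% of the counts and CT010467.1 and Lars2 together 4.97% to 13.3%, against 15.7% to 27.1% and 0.830% to 1.56% in batch 1 of the same stage. The part of these in the batch difference was not tested. Without batch 2, 16 genes rose and 1 fell between the stages in separated embryos, beside 726 and 575 of all 14173 genes tested.

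**Figure D4:**
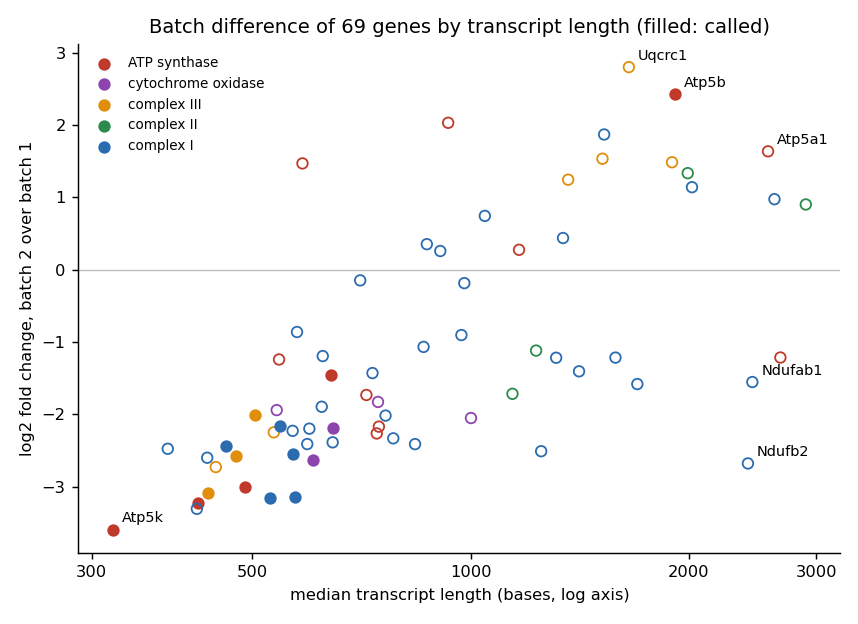
Log2 fold change of separated 4-cell embryos of batch 2 (n = 2) over those of batch 1 (n = 3) against median transcript length (log axis) for the 69 genes with a length, coloured by complex and filled where edgeR's adjusted p was under 0.05. Genes of up to 603 bases lie mostly below −2, with a median of −2.48, and genes longer than 1077 bases lie on both sides of 0, with a median of 0.44.

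Sister blastomeres were compared within each separated embryo. The median SD between sisters, on the scale of log2 CPM, was 0.36 over 70 of the 71 genes in batch 2 of the 4-cell stage, 0.73 over 68 in batch 1 and 0.98 over 59 at the 2-cell stage, for genes of at least 10 CPM. Over all genes it was 0.55, 2.02 and 2.09 in the same order, but the 71 genes had higher levels than all genes, with median CPM of 68.7, 149 and 103 against 45.3, 38.1 and 34.6. For genes of at least 50 CPM the medians were 0.31, 0.62 and 0.61, against 0.37, 0.87 and 0.75 over all genes. Among 4-cell sisters of batch 1 the most even were Uqcr10, Ndufa4 and Atp5md, with SDs of 0.18, 0.19 and 0.20. Uqcr10 had 1716, 1830.4, 2079 and 1582 CPM in the blastomeres of embryo 2, for example. The least even were Ndufa9, Uqcrfs1 and Sdhd, with SDs of 3.75, 3.35 and 3.22.

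Ndufa9 was uneven among all 3 sets of sisters of batch 1. It had 145, 21.4, 0.318 and 95.8 CPM in the blastomeres of separated 4-cell embryo 2, 1.30, 169, 0 and 134 CPM in those of embryo 3, and 0, 182, 42.5 and 26.5 CPM in those of embryo 4. In batch 2, and in the 2-cell blastomeres, every sister had it, with 74.9 to 180.4 CPM and 77.7 to 384 CPM. A count of 0 in a single blastomere can be a message that was not captured, and that was not tested. At the 2-cell stage the least even were Ndufb9, Sdhb and Ndufb7, with SDs of 4.64, 3.99 and 3.68, and the most even Ndufab1, Ndufa2 and Atp5md, with SDs of 0.17, 0.25 and 0.26. Ndufab1, the mitochondrial acyl carrier protein, had 48.9 and 36.9 CPM in the sisters of separated 2-cell embryo 3 and 244 and 213 CPM in those of embryo 5.

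**Figure D5:**
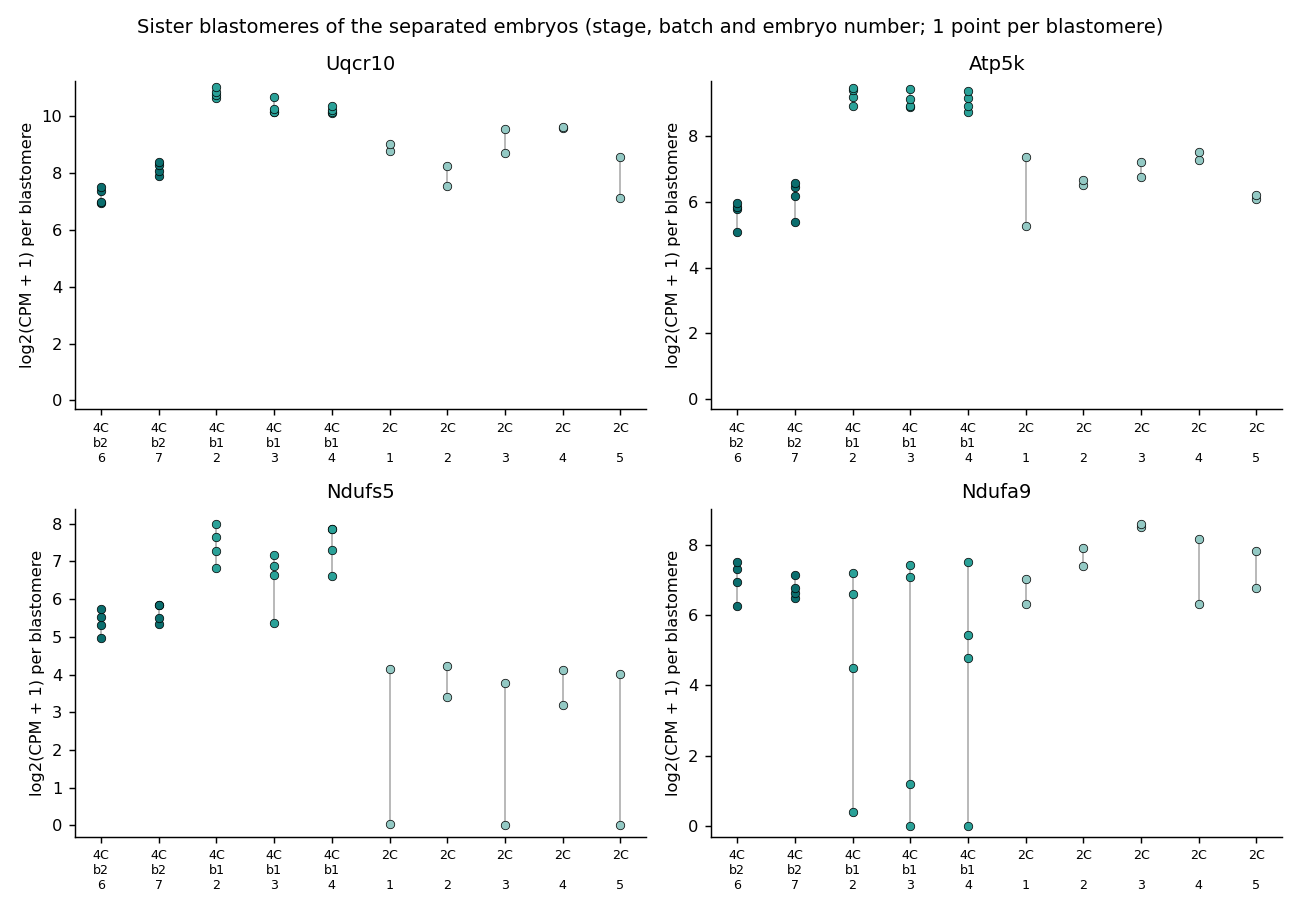
Log2(CPM + 1) of Uqcr10, Atp5k, Ndufs5 and Ndufa9 in each blastomere (point) of the 10 separated embryos, with sisters joined by a line; embryos of batch 2 and batch 1 (b2 and b1) of the 4-cell stage stand left of those of the 2-cell stage. Sisters lie close for Uqcr10, while Ndufa9 ranged over 0 to 182 CPM among the sisters of 4-cell embryo 4.

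Differences between separated embryos, with sisters as the replicates, passed for none of the genes in edgeR. This held for 2-cell embryos, batch 1 and batch 2, where 0.0333%, 0.152% and 0.794% of all genes passed. An unadjusted p under 0.05 was found for 7, 19 and 12 genes of the set of the 70, 71 and 71 tested in that order, beside 6.84%, 9.59% and 12.5% of all genes. Without separated 4-cell embryo 2 the 19 became 5. On counts simulated for the 2-cell embryos, 43 of edgeR's 77 calls were false and 0 of the 14 calls of limma-trend were. With limma-trend, added after that was seen, Ndufa2 differed between the embryos of batch 1 (adjusted p = 0.0399), and Uqcr10 between those of batch 2 (adjusted p = 0.0436), beside 0.679% and 1.57% of all genes, so 1 gene of the 71 was near the background. Between 2-cell embryos limma-trend called 0 of the genes, beside 0.0834% of all genes, and 14 had an unadjusted p under 0.05, beside 13.8% of all genes. Uqcr10 had 121 to 179 CPM in the blastomeres of embryo 6 and 237 to 329 CPM in those of embryo 7.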

How the data were processed

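Total RNA of wild-type embryos or single blastomeres was made into Smart-seq2 libraries (poly(A) priming and PCR, then tagmentation), per the labels' protocols. The deposited values were expected counts per gene, of which 12.6% of those above 0 were not whole (tolerance 1e-06). Trim Galore 0.6.10, STAR 2.7.3a, RSEM 1.2.28 and the build GRCm38 (mm10) are named in the submitters' processing notes; the annotation and strandedness are not given in the sources used here.

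The expected counts were rounded, summed over the blastomeres of each embryo, and tested with edgeR 4.0.16 (TMM, quasi-likelihood F-test, filter by group, 14119 genes) in 1 fit of all 19 embryos with terms for group and batch. P-values were adjusted by Benjamini-Hochberg over all genes tested, at 0.05, and the SE is the log2 fold change over the root of F. Common biological variation was 1.43, with 14 residual degrees of freedom. On simulated counts the fit recovered 29% of genes changed 16-fold and 4.6% of those changed 4-fold in the intact stage comparison, so many changes can be missed. CPM of embryos were TMM-normalised, and those of blastomeres were per library total. Sister spread was the SD of log2 CPM with a prior count of 2, for genes of a mean of at least 10 CPM. No 2 of the 39 libraries had identical values (741 pairs compared). Counting intervals are exact 95% intervals.

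The members and lists were chosen with earlier results of these data known. Genes named in the text were, within each complex, the 3 (complex I, 6) of smallest p per stage comparison, every gene called lower, every gene called by separation or batch or else those of smallest p, all Sdh and Atp5g genes, the 5 highest and lowest per length, and the 3 most and least even between sisters; genes of other lists were up to 3 called per list. The result of 1 gene that this rule names is not reported here. Same-numbered embryos deviated together with correlations of −0.055 to 0.025, so no pairing by replicate number was seen. Values with this much noise cannot exclude such pairing. Alternatives were DESeq2 1.42.0, its size factors, limma 3.58.1, other filters, fits without batch, thinned counts and leaving out each embryo. Other tools were R 4.3.3, matplotlib 3.10.9, scipy 1.17.1, pandas 2.3.3, numpy 2.4.6 and Python 3.11.15. Lengths and loci came from GENCODE M21, in which 53243 genes matched. Of 69 placed genes, 25 overlapped a gene on the other strand and 10 one on the same strand. Promoter sequences came from RefSeq (GRCm38.p6).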

Additional observations from a re-analysis of the deposited data

Results flagged for a closer look

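In 14 of the 162 groups of a gene's embryo values examined, 1 embryo stood apart from the rest by Dixon's 95% limit. Chance flags about 1 in 20 groups only where values follow a normal distribution, which was not tested. Some groups held embryos without a count, and the separated 4-cell groups pooled both batches. Among separated 4-cell embryos, Cox7b was high in embryo 2 at 166.1 CPM (others 16.4 to 37.2) and Sdha in embryo 7 at 33.41 CPM (others 11.7 to 13.7). Among separated 2-cell embryos, embryo 3 was high for Atp5e at 370.6 CPM (others 51.1 to 112), Ndufv3 at 127.2 CPM (others 3.09 to 24.8) and Uqcr11 at 107.3 CPM (others 19.04 to 38.95). Among intact 4-cell embryos, Atp5e was high in embryo 1 at 260.5 CPM (others 130.1 to 147).

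The other 8 were in intact 2-cell embryos. Embryo 2 was high for Ndufa10 at 49.66 CPM (others 0 to 5.26), Ndufv1 at 31.74 CPM (no count in the others) and Sdha at 41.11 CPM (others 0 to 8.07). Embryo 3 was high for Atp5h at 316.7 CPM (others 189.6 to 215.5) and low for Cox5a at 386.4 CPM (others 677 to 782). Embryo 5 was high for Ndufa5 at 37.11 CPM (others 0.1385 to 7.78), Sdhc at 26.64 CPM (others 0 to 6.28) and Uqcrq at 370.7 CPM (others 95.05 to 169.5).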

How the results depend on the processing

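Of the 64 calls checked under each alternative, none changed direction, 30 were kept in every alternative and 34 were lost in 1 or more. Other calls given above were not checked in this way. They include those of Atp5a1, Atp5b, Atp5h, Atp5j and Ndufb7 in intact embryos and of Atp5mpl and Atp5g2 in separated embryos. The median of the 71 genes for separation at the 2-cell stage, 0.12, ran from −0.08 to 0.33. The numbers of genes higher and lower, 15 and 4 in intact embryos, became 9 and 2 with the replicate block, 23 and 2 with limma voom, and 4 lower became 7 at a mean of at least 10 CPM, 8 with the DESeq2 test and 2 without a batch term. Over all 14119 genes, 764 and 705 became 356 and 381 with the replicate block and 1828 and 1016 with limma voom. Lower were 837 of 6654 genes at a mean of at least 10 CPM, 1775 of 14119 with the DESeq2 test and 588 of 14119 without a batch term. In separated embryos 17 higher became 37 with limma voom, and 1 lower became 3 at a mean of at least 10 CPM, 0 with the replicate block, 3 with the DESeq2 test, 4 with limma voom and 3 without a batch term. Over all genes, 904 higher became 1333 with limma voom, and 664 lower became 342 with the replicate block. The number lower was 1963 with the DESeq2 test, 985 with limma voom, 1162 without a batch term and 727 of 6654 at a mean of at least 10 CPM. The DESeq2 test gave 1 higher and 2 lower for separation at the 2-cell stage and 2 higher in the interaction, where edgeR called none. Of all 14119 genes the DESeq2 test gave 217 higher and 276 lower for separation at the 2-cell stage and 225 and 292 in the interaction. For batch, 1 higher and 15 lower became 2 and 24 with the DESeq2 test, 4 and 39 with limma voom and 3 and 38 with the compared groups alone. Over all genes, 38 higher and 248 lower became 512 and 764, 1330 and 1044, and 479 and 674 of 6555, in the same order. The causes were not tested. No pairing by replicate number was seen, though it is not excluded, and the replicate block gave 28 higher and 5 lower in the averaged stage. Of the 64 calls checked, Ndufb4, Ndufc1, Ndufa9, Ndufa4 and Sdhd lost theirs in intact and Uqcrh, Ndufa9 and Ndufv3 theirs in separated embryos. Of all 14119 genes, the replicate block gave 1476 higher and 1196 lower in the average.

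Leaving out each embryo gave 6 to 17 higher and 2 to 6 lower in intact, 12 to 19 and 0 to 2 in separated and 22 to 33 and 5 to 6 in averaged embryos, 1 higher and 2 to 16 lower for batch, and 0 for separation, the interaction and differences between embryos. Without intact 4-cell embryo 1, 4 or 5, the number higher in intact embryos was 6, 9 or 9, and without intact 2-cell embryo 3 or intact 4-cell embryo 3 or 5 the number lower was 2. Of all genes, 380 of 15302, 480 of 15284 and 344 of 15304 were then higher. Lower were 567 of 13982, 441 of 15339 and 454 of 15304, in the order named. In separated embryos the number lower was 0 without separated 4-cell embryo 3 or 4 or separated 2-cell embryo 3, and 2 without separated 4-cell embryo 2. limma voom moved the median of all genes to 0.58 in intact embryos. Sister spreads at a mean of at least 50 CPM were 0.308 (4-cell, batch 2), 0.62 (4-cell, batch 1) and 0.608 (2-cell). Without mitochondrially encoded genes the share of counts was 1.791% in intact 4-cell, 1.247% in intact 2-cell and 1.256% in separated 2-cell embryos. limma-trend, chosen after seeing the data, called 1 gene between embryos in batch 1 and 1 in batch 2, beside 0.679% and 1.57% of all genes.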
